A study of Mus musculus with 15 samples.

Results

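The non-CpG cytosines described here had a mean methylation of 5 to 50% over 15 mice. They were chosen from the autosomal non-CpG positions with a value in every mouse and no repeated entry, and 11928 of 613082 such positions (1.95%) met the rule. A further 697 autosomal positions lay above 50% and 600457 lay under 5%, of which 232194 were at 0 in every mouse. The values that chose the sites are the same percentages that are described below, so their levels are a description and are not tested. The mice were female C57BL/6JRj animals, 7.5 months old, and DNA came from micro-dissected dentate gyrus, the part of the hippocampus that holds the granule neurons. The standard group (5 mice) lived in standard cages for 6 months and the enriched group (5 mice) in an enriched environment for 6 months. The withdrawal group (5 mice) had 3 months of enrichment and then 3 months of standard housing. The assay was RRBS (reduced representation bisulfite sequencing), which reads short CpG-rich fragments after a treatment that converts unmethylated cytosines. The percentages carry no read counts, so the depth behind each value is unknown. The share of the 2462278 non-CpG rows without a value ranged from 2.57% in withdrawal mouse 4 to 30.1% in standard mouse 1.

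Most DNA methylation of mammals sits at CpG, a cytosine followed by guanine, where both strands carry the mark and a maintenance enzyme copies it at each division. Non-CpG methylation is not copied in this way and is written anew, in neurons mainly by DNMT3A. It builds up in neurons after birth and lies mostly at cytosines followed by adenine (CA). The dissected tissue holds several cell types, so fewer cells with a methylated cytosine and a lower level in each cell cannot be told apart here.

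The base after the cytosine was read for the sites that lie in RefSeq promoter sequence of the assembly GRCm38.p6 (250 bases before to 50 after a gene's start). Of the 11928 sites, 108 fell in such sequence, in 78 promoter regions, and every one of the 20743 complete autosomal non-CpG positions there was a cytosine not followed by guanine. The 8 sites of highest mean are printed here, 5′ to 3′ on the strand that was measured, with 14 bases on either side. The capitals mark the methylated cytosine and the next base, and all 8 have an adenine there.
Gm26562, chr16:30206706-30206734, minus strand: caaagcagtttctaCAtgacctcactaga
2210039B01Rik, chr12:73548497-73548525, plus strand: taaaggcagcagcaCActcgttcacggat
Gm51896, chr11:57671020-57671048, minus strand: ctctgatctgagcaCAcgagggaaacaaa
Itgb6, chr2:60673739-60673767, minus strand: tcccgggcactgtaCAcctgacttcctta
Gm35624, chr11:46172201-46172229, minus strand: tgggtttcctcagtCActatgtcactgaa
Gm35253, chr5:99510742-99510770, plus strand: aagcaccggaagagCAggagcgccacggg
A1cf, chr19:31868731-31868759, plus strand: gtaaaccaaacctaCAgccactgaacctt
Gm13261, chr2:10365162-10365190, minus strand: agaggaaccatgagCAcatggccaggaga
The exceptions to this pattern include only 2 sites followed by a cytosine, shown for contrast. The Cdkl2 site averaged 9.90% and the Dna2 site 6.67%.
Cdkl2, chr5:92043082-92043110, plus strand: gtggaccggaagagCCtagtagtttattt
Dna2, chr10:62946847-62946875, minus strand: gtctcatagcaatcCCccgtctcgggctt

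The highest of these promoter sites lay 146 bases before the start of Gm26562, a long non-coding RNA gene, and averaged 43.4%. Its values were 50%, 18.9%, 22.2%, 5.13% and 46.9% in standard mice, 84.4%, 52%, 47.0%, 60% and 52.4% in enriched mice, and 41.8%, 38.3%, 44.4%, 49.6% and 38.7% in withdrawal mice. Standard mice covered the widest range, and every enriched mouse lay above all but 1 of them. The site in 2210039B01Rik, another long non-coding RNA gene, was more even: the standard mice averaged 27.4% ± 6.44 (SD, n = 5), the enriched mice 21.2% ± 5.88 and the withdrawal mice 22.4% ± 4.42. In Itgb6, which encodes an integrin subunit, the site lay 60 bases before the start and averaged 14.2%.

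Of the 108 sites in promoter sequence, 87 were followed by adenine (80.6%, Wilson 95% interval 72.1% to 86.9%), 19 by thymine (17.6%) and 2 by cytosine (1.85%). The other 20635 complete positions in the same sequence were divided almost evenly, with 32.2% followed by adenine, 35.0% by thymine and 32.8% by cytosine. Malat1 alone gave 9 of the 108 sites, and without it 79 of 99 (79.8%) were followed by adenine. Read the other way, 1.29% of all CA positions in promoter sequence were at 5 to 50%, against 0.262% of CT and 0.0296% of CC positions. Among the CA trinucleotides the share was highest for CAC, at 2.11%, then CAG at 1.18%, CAA at 0.988% and CAT at 0.928%. The interval treats sites as independent, although neighbouring sites share fragments.

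Outside promoter sequence the next base could be read in part from the table itself, because a following cytosine usually has a row of its own. This check found 97.8% of the CC positions in promoter sequence and none of the CA or CT positions. By it, 179 of the 11928 sites (1.501%) were followed by a cytosine, against 25.7% of all complete autosomal positions. The share fell step by step with the level, from 34.2% at positions with 0 in every mouse to 9.62% at 2 to 5%, 1.97% at 5 to 10% and 0.368% at 10 to 20%. Above 50% it was 39.7%, so the positions of nearly full methylation differed from those of 5 to 50% in this respect. Among the 2236 sites above 0 in at most 4 mice it was 6.22%, and without those sites it was 0.413%.

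**Figure D1:**
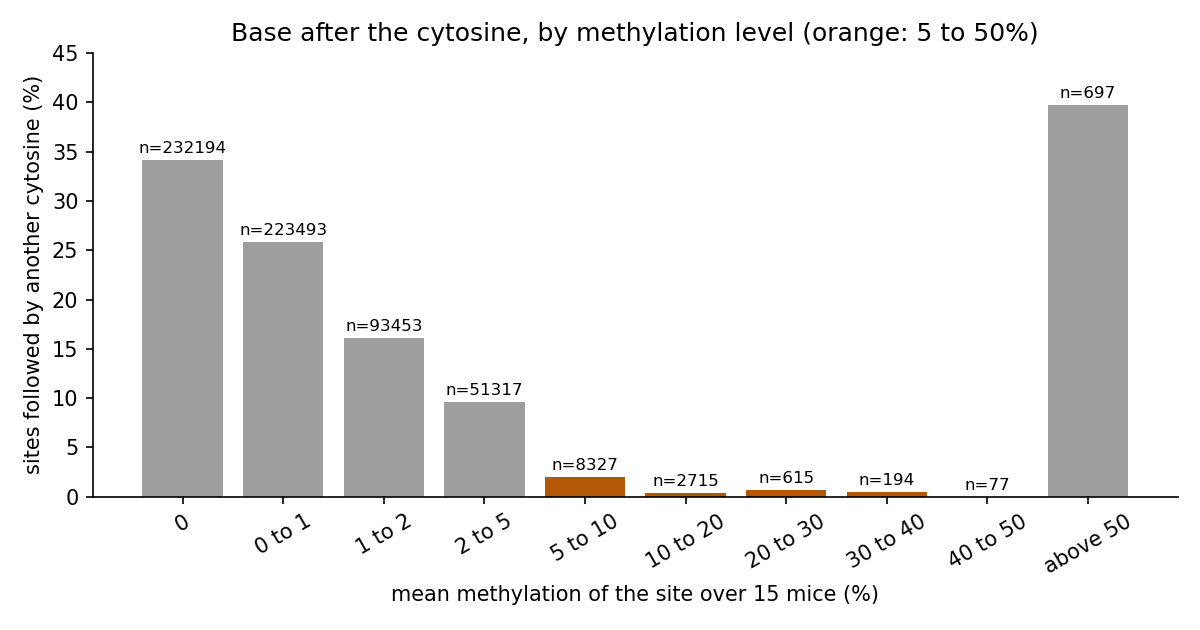
Share of non-CpG sites followed by another cytosine (y axis, percent) in bins of the site's mean methylation over 15 mice (x axis, percent), with the number of sites above each bar. The orange bars, sites of 5 to 50%, lie between 0% and 1.97%, while sites at 0 in every mouse reach 34.2% and sites above 50% reach 39.7%.

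Although the rule runs to 50%, most sites lay near its lower limit. The mean over the 11928 sites was 9.85%, the median 7.42% and the quartiles 5.87% and 11.1%. Of these sites 8327 (69.8%) were under 10%, 2715 lay at 10 to 20%, 886 at 20% or more and 271 at 30% or more. The values at the limits were 5% for the lowest site inside and 4.998% for the highest below it, and 49.9% for the highest inside and 50.2% for the lowest above it. The strands were nearly even, with 5876 sites on the plus and 6052 on the minus strand. Another 150 sites of 5 to 50% on the X chromosome are not among the 11928.

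A moderate mean often came from a few mice. The median SD between mice was 11.1 percentage points, larger than the median level. The median over 15 mice was 0 at 5394 sites, 186 sites had a value above 0 in 1 mouse only, and 3077 sites (25.8%) had at least 1 mouse at 50% or more. At the other end, 845 sites (7.08%) were above 0 in all 15 mice, with a mean of 20.4% and a median SD of 8.30 points. The steadiest site, inside Usp48, a gene for a ubiquitin protease, on the minus strand of chromosome 4 at 137617992, averaged 5.57% with an SD of 1.84 and ranged from 2.26% to 8.91%. The most variable site, between genes on the plus strand of chromosome 1 at 98403045, averaged 45.9% with an SD of 32.6. It stood at 0 in standard mouse 1 and at 100% in enriched mice 4 and 5, and every group spanned a wide range.

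Because the same values choose and describe the sites, the level was also read in a mouse that took no part in the choice. When the rule was applied to the mean of the other 14 mice, 12059 to 12485 sites were chosen, with means of 9.71% to 9.80% in the mice that chose them. The mouse left out then averaged 7.88% ± 0.429 (SD over 15 mice), from 7.24% in standard mouse 3 to 8.56% in enriched mouse 1. The mean over all complete autosomal positions was 0.936%. These 15 values share most of their mice and are given without a test. Across the 11928 sites, the correlation between mice was low, within and between groups. Its median was 0.152 (0.0616 to 0.372) over the 30 pairs of the same group and 0.156 (0.0718 to 0.330) over the 75 pairs of different groups, a description across sites that share fragments and libraries.

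Gene ends held few of these sites. A gene end was the first or last base of a protein-coding gene with 1 kb on each side. By this definition 535 of 11928 (4.49%) lay at a gene end, 5051 (42.3%) inside a gene and 6342 (53.2%) between genes. The corresponding shares of all complete autosomal non-CpG positions were 15.4%, 37.4% and 47.2%. Put as a rate, 0.566% of the positions at gene ends were at 5 to 50%, against 2.20% inside and 2.19% between genes. The rate rose with distance from a transcript start, from 0.495% within 250 bases to 1.92% at 1 to 10 kb and 2.31% at 10 to 50 kb, and was 2.25% beyond 50 kb. Sites above 50% were different again, with 0 of 697 at gene ends and 84.4% between genes.

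Methylation of nearby CpG went along with this pattern. CpG sites within 50 bases had a median level of 88.5% around the sites of 5 to 50%, and of 59.9% around all complete non-CpG positions. Where the CpG nearby averaged under 20%, 0.406% of non-CpG positions were at 5 to 50%, against 2.41% at a CpG level of 20 to 80% and 2.88% above 80%. Protein-coding genes of 100 kb or longer held these sites at 2.50% of their complete positions and shorter genes at 1.33%. The separate parts of gene length, distance from the start and CpG level were not tested. By chromosome the rate ran from 1.62% on chromosome 15 to 2.19% on chromosome 2.

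**Figure D2:**
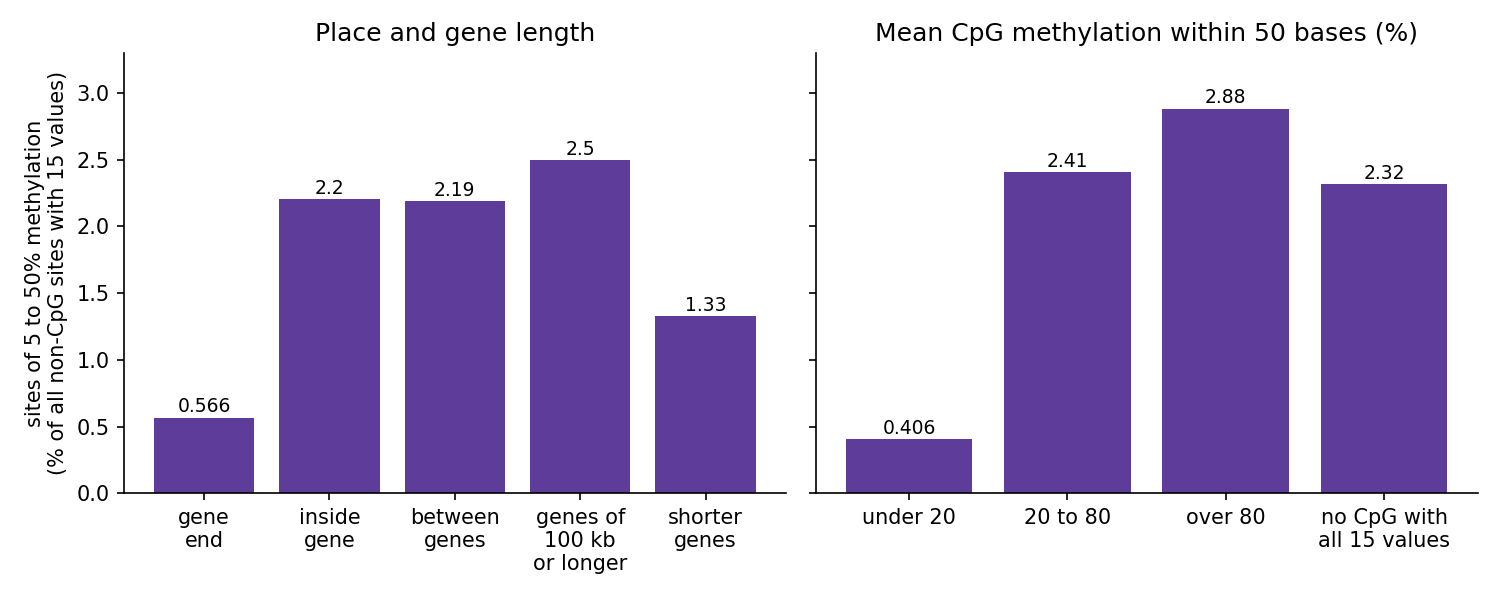
Share of complete autosomal non-CpG positions at 5 to 50% (y axis, percent) by place and gene length (left) and by mean methylation of CpG within 50 bases (right). Gene ends (0.566%) and positions near CpG of low methylation (0.406%) stand below all other classes, which lie between 1.33% and 2.88%.

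The sites lay close together on 1 strand. Of 11928 sites, 5769 (48.4%) had another within 50 bases on the same strand, 28.7% within 10 bases and 50.7% within 200. The share of neighbours was highest at a distance of 2 bases, where 15.6% of the complete positions downstream of such a site were at 5 to 50% themselves. The share was 0.336% at 1 base, 8.33% at 3 to 5 bases, 9.95% at 6 to 10, 5.64% at 21 to 50 and 3.40% between 200 and 1000, against 1.95% over all complete positions. A pair 2 bases apart had a median correlation of 0.158 over the 15 mice, and pairs on different chromosomes one of -0.031. These values describe sites read on the same fragments.

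**Figure D3:**
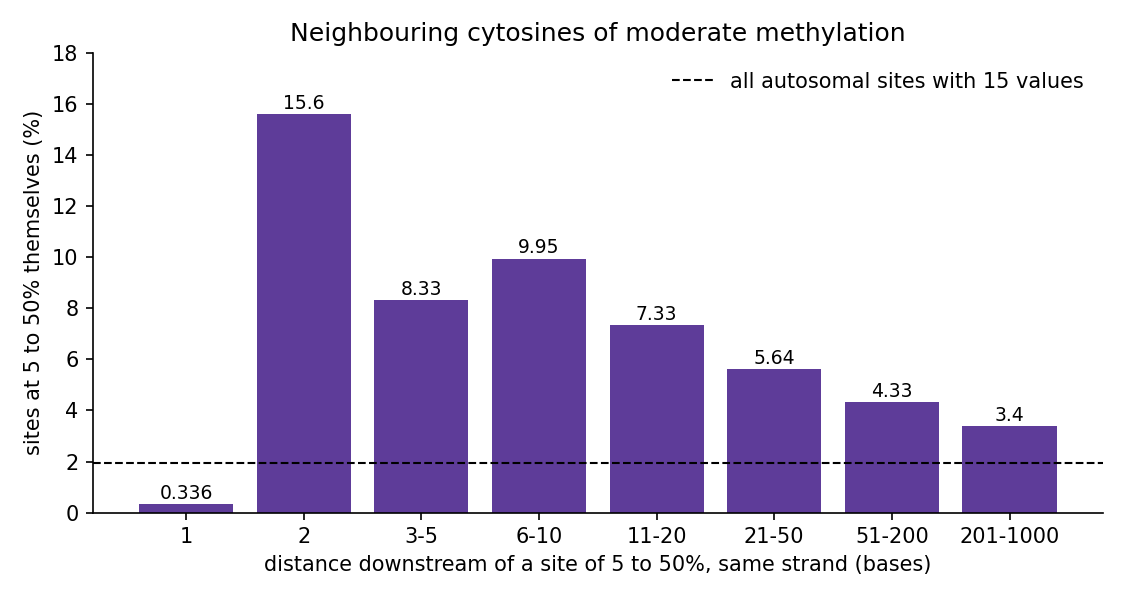
Share of complete non-CpG positions that are themselves at 5 to 50% (y axis, percent) at increasing distance downstream of such a site on the same strand (x axis, bases), with the dashed line at the share over all positions. The bar at 2 bases (15.6%) is the highest, the bar at 1 base (0.336%) the lowest, and the rest fall from 9.95% to 3.40% with distance beyond 5 bases.

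Few positions of the opposite strand could be compared. In 56 cases the cytosine opposite a CHG-type position (a guanine 2 bases on, whose partner is a cytosine of the other strand) had a value in every mouse. None of these 56 partners was at 5 to 50%, and they averaged 0.666% where the chosen strand averaged 8.99%. Within 50 bases on the other strand, 5.58% of complete positions were at 5 to 50%, but only 1019 sites (8.54%) had any complete position there.

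When complete positions on the same strand with gaps of at most 50 bases were joined into stretches, 8308 of 49922 stretches (16.6%) held a site of 5 to 50%. Most, 5947, held 1. At least 3 such sites lay in 767 stretches and at least 5 in 108, and the fullest held 14. The 10 stretches with the most sites are described next. Of 8 stretches tied at 8 sites, the 2 with the highest mean are among them.

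The stretch with 14 sites, on chromosome 1 (minus strand, 114637548 to 114637587), lay 1047150 bases from the nearest protein-coding gene, Cntnap5a. It was the most constant of the 10, with a mean between 28.9% and 30.3% in every mouse of every group (29.6% ± 0.548 for standard, 29.7% ± 0.442 for enriched, 29.3% ± 0.396 for withdrawal). Single sites varied more between mice than this mean. The site at 114637572 ran from 40.8% in standard mouse 1 to 61.5% in standard mouse 5. The site at 114637587 ran from 9.09% in standard mouse 5 to 31.25% in enriched mouse 5. As means over the 15 mice, the sites of the stretch took 3 levels. The 4 highest, 12 bases apart from each other, averaged 47.5% to 49.7%, another 4 averaged 25.2% to 25.8% and the remaining 6 averaged 17.7% to 20.6%. Beside them in the same stretch, 4 positions averaged 99.7% to 100% and 14 averaged 0.431% to 3.38%. Here 5 of 14 sites were followed by a cytosine, which none of the sites in the other 9 stretches were.

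The next stretch in size, 12 sites on chromosome 17 (minus strand, 74995176 to 74995222), lay 10258 bases from Ltbp1, whose product binds latent TGF-beta. It averaged 24.1%, with CpG at 96.3% nearby, and held the highest of all the sites, at 49.9%. Its mean was 11.8%, 41.3%, 31.2%, 25.2% and 14.1% in standard mice, 13.9%, 20.1%, 21.1%, 24.5% and 13.0% in enriched mice and 49.8%, 30.8%, 20.97%, 23.5% and 20.2% in withdrawal mice. The groups overlapped, and withdrawal mouse 1 and standard mouse 2 were the highest.

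At Malat1, a long nuclear RNA that is abundant in neurons, 11 of 12 complete positions of 1 stretch were at 5 to 50%, on chromosome 19 (minus strand, 5802614 to 5802668). Of these, 9 lie in RefSeq promoter sequence, 4 to 44 bases after the start. They are shown in capitals to make their spacing visible.
Malat1, chr19:5802623-5802673, minus strand: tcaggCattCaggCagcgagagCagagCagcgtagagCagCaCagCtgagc
Each capital but 1 is followed by adenine, and that one by thymine. CpG near the sites of this stretch averaged 6.58%, the lowest of the 9 stretches with CpG nearby. The stretch averaged 28.6% in standard mouse 5, 23.1% in enriched mouse 5 and 34.1% in withdrawal mouse 3, then 7.63% in standard mouse 4 and 6.95% in enriched mouse 4. The other 10 mice lay between 0 and 1.73%. Each group thus held 1 mouse above 20%, and the mean of 6.92% came from 5 of the 15 mice almost alone.

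Inside Psen2, which encodes a subunit of the gamma-secretase protease, 10 sites lay within 20 bases on the plus strand of chromosome 1, from 180235588 to 180235608, spaced 2 bases apart but for 1 gap of 4. They averaged 9.03%, and every mouse lay between 2.93% and 16.5%. Inside Tenm4, whose product is a synaptic teneurin, 9 sites stood exactly 2 bases apart from 96754186 to 96754202 on the minus strand of chromosome 7. They averaged 7.50% and ranged from 0 in enriched mouse 4 to 15.5% in withdrawal mouse 2. Akna, which encodes an AT-hook protein, held 10 sites on the plus strand of chromosome 4, from 63407599 to 63407661, where the 3 group means were 12.7% ± 2.01 (standard), 17.0% ± 5.69 (enriched) and 16.1% ± 5.27 (withdrawal). The other stretches lay near Neo1 (9 sites, 16.2%), near Atp1b1 (9 sites, 12.0%), near Kit (8 sites, 14.6%) and inside Skap1 (8 sites, 14.4%). The stretch near Kit showed the widest spread of these 4, from 5.68% in standard mouse 1 to 40.1% in withdrawal mouse 3. The Skap1 stretch showed the narrowest, from 9.13% to 20.1%.

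**Figure D4:**
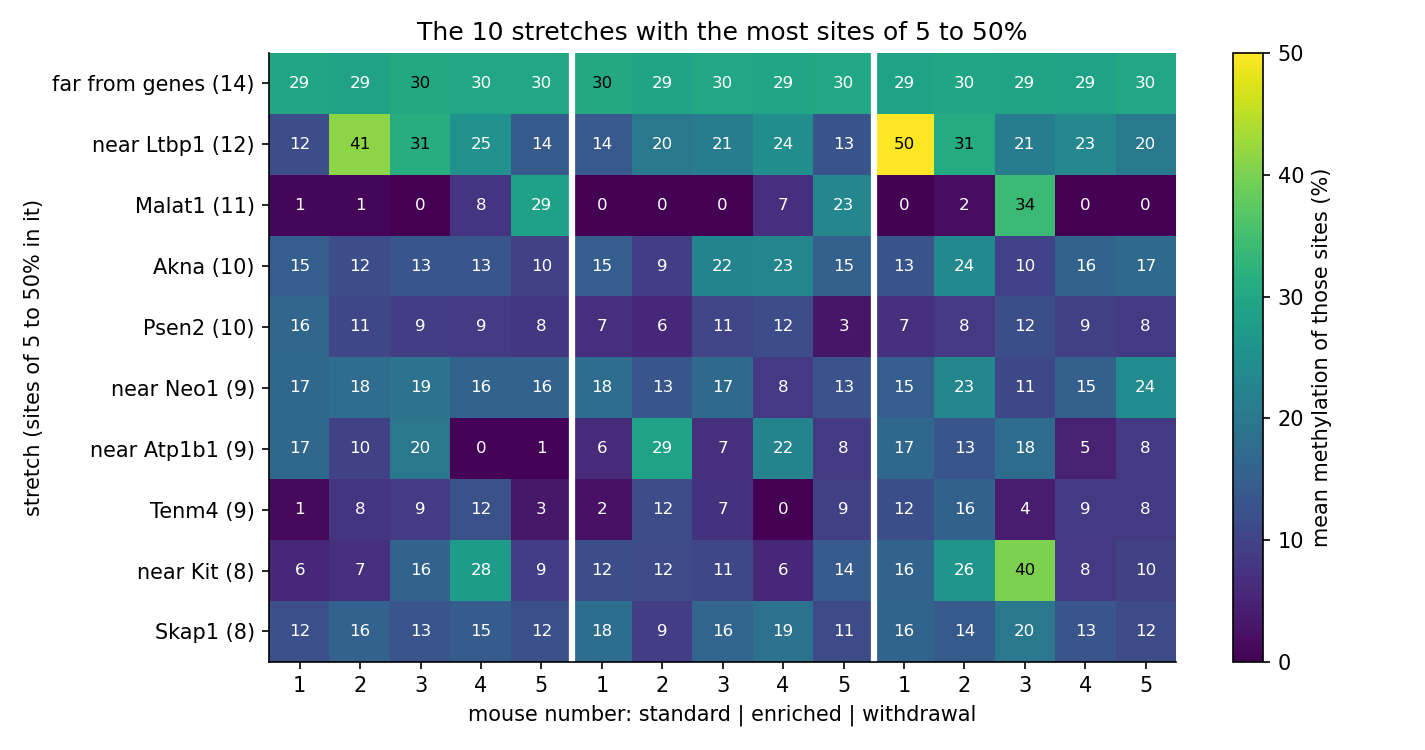
Mean methylation of the sites of 5 to 50% (colour and numbers, percent) in each of the 10 stretches (rows, number of sites in brackets) and each mouse (columns, 5 per group, white lines between groups). The top row is constant at 28.9% to 30.3%, the Malat1 row is high in 1 mouse of each group, and the rest vary between mice within every group.

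Of 10546 protein-coding genes with a complete non-CpG position inside or within 1 kb, 2579 (24.5%) held at least 1 site of 5 to 50% and 620 held at least 3. Genes with at least 3 had a median length of 162670 bases, against 32578 bases for all genes with a complete position. A count of sites favours long genes, which have more positions, so each count is given with its share of the gene's positions. All 20 genes with the most sites were 100 kb or longer, from 176 kb to 1297 kb. Together they held 349 sites, of which 3 lay at a gene end and 2 were followed by a cytosine.

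Wwox, a gene for an oxidoreductase that spans a common fragile site, held the most, 35 of 683 complete positions (5.12%), with means from 5.11% to 27.1%. The transcription factor genes were Sox5 (25 sites, 5.47% of positions), Zfhx3 (21, 5.05%), Sox6 (18, 5.96%), Camta1 (16, 3.43%), Npas3 (16, 5.54%), the nuclear receptor gene Esrrg (16, 7.69%) and Mecom (13, 4.04%). Among genes of cell adhesion, guidance and the membrane, Tenm3 had 20 sites (3.63%), Abcc4 14 (9.40%), Ank1 14 (14.7%) and Ntn1, the netrin gene, 13 (8.28%). Bmper, whose product binds bone morphogenetic proteins, had the highest share, 17 sites (16.8% of its positions). Mgmt, a gene of DNA alkylation repair, had 17 of 121 (14.05%) and Mei4, of meiotic recombination, 14 of 109 (12.8%). Skap1 had 21 sites, Cfap61 16, Msi2 16 and Acoxl 13. The share over all protein-coding genes was 1.63%, and a gene chosen for its count of sites lies above it by that choice.

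Within these genes the mice differed without separating by housing. The mean over the sites of Wwox was 22.2%, 13.3%, 8.47%, 13.2% and 9.83% in standard mice, 9.73%, 9.47%, 12.2%, 12.5% and 13.6% in enriched mice and 12.3%, 12.3%, 7.17%, 8.74% and 7.09% in withdrawal mice. The single high value was that of standard mouse 1, the mouse with the most missing rows. At Esrrg the mean was 6.05%, 7.13%, 9.47%, 7.60% and 6.77% in standard mice, 15.1%, 4.94%, 13.98%, 18.9% and 17.3% in enriched mice and 7.49%, 8.69%, 15.8%, 11.5% and 13.8% in withdrawal mice. Of the enriched mice at Esrrg, 4 lay above every standard mouse and 1 lay below all of them. In none of the 20 genes did any group lie wholly above or below another.

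The cell-type lists were short, with 7 to 12 genes each. Among their genes with a complete position, the shares with a site are given beside the 24.5% of all such protein-coding genes. Among granule neuron genes 4 of 9 held a site (44.4%), among interneuron genes 3 of 9 (33.3%), among astrocyte genes 2 of 6, among oligodendrocyte genes 2 of 6 and among genes of microglia and vessels 2 of 3 (66.7%). With so few genes, 1 gene moves a share by over 10 points. The share of positions at 5 to 50% was 0.933%, 1.15%, 1.04%, 1.504% and 2.37% in that order, against 1.63% over all protein-coding genes. Prox1, the transcription factor that sets granule neuron identity, held 2 sites with means of 10.5% and 6.09%, the first above 0 in 4 mice only. Reln, the gene of the extracellular protein reelin, held 4 sites. The fullest of them, on the minus strand of chromosome 5 at 21997254, averaged 8.07% ± 5.83 over the standard, 15.8% ± 6.73 over the enriched and 16.6% ± 9.02 over the withdrawal mice.

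Of the genes that write, read or remove cytosine methylation, 3 of 9 (33.3%, all genes 24.5%) held a site, namely Tet1 (3), Tet2 (3) and Dnmt3a (1). The proteins of Tet1 and Tet2 oxidise methylated cytosine, and that of Dnmt3a deposits it. The highest Tet1 site, on the plus strand of chromosome 10 at 62812496, was above 0 in every mouse. It stood at 12.5%, 17.5%, 26.8%, 12.9% and 13.6% in standard mice, 29.1%, 25.7%, 17.4%, 34.0% and 28.8% in enriched mice and 11.1%, 12.3%, 13.6%, 14.02% and 17.1% in withdrawal mice. All enriched mice were higher than all withdrawal mice there, and they overlapped the standard mice through standard mice 2 and 3. These 2 groups did not overlap at 65 of the 11928 sites (0.545%, all tested sites 0.0643%), and this site was singled out after its values were seen. It was not among the 5 of smallest p in any comparison and was not called.

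Among imprinted genes 6 of 14 held a site (42.9%, all genes 24.5%). Igf2, which encodes a growth factor expressed from the paternal allele in most tissues, held the highest, on the plus strand of chromosome 7 at 142652142, with CpG at 89.8% nearby. Its values were 16.4%, 14.3%, 34.7%, 17.9% and 12.3% in standard mice, 40.5%, 9.26%, 34.8%, 32.3% and 24.4% in enriched mice and 33.8%, 29.1%, 32.6%, 36.9% and 13% in withdrawal mice. The groups overlapped, although 4 of 5 withdrawal mice lay above 4 of 5 standard mice. Peg3 held 1 site at 13.9% and Grb10 held 3 between 7.61% and 10.5%.

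Housing was compared first through the mean over all 11928 sites in each mouse. It was 11.5%, 9.72%, 8.65%, 10.4% and 10.5% in standard mice (10.2% ± 1.05), 11.1%, 9.54%, 8.73%, 10.1% and 10.7% in enriched mice (10.02% ± 0.942) and 9.43%, 9.81%, 9.26%, 9.04% and 9.25% in withdrawal mice (9.36% ± 0.286). The enriched mean was 0.132 points under the standard mean, within the spread of either group. The withdrawal mean fell by 0.794 points against standard and by 0.663 against enriched. This was less than 1 SD of the standard or enriched mice but more than the SD of the withdrawal mice (0.286). The pooled SD of the 2 groups was 0.766 against standard, under the difference, and 0.696 against enriched, above it. The withdrawal mice lay inside the range of both other groups. The direction depended on the summary: by the median over sites withdrawal mice were 1.70 points above standard and 1.69 above enriched mice. Among positions with at least 3 values per group the differences of means were -1.24 and -0.991. Enriched against standard turned to 0.197 points without standard mouse 1 and to 0.0108 by the median. No test was made, since the sites were chosen from these mice. When each mouse was read at the sites chosen by the other 14, the 3 group means lay closer together. They were 7.93% ± 0.494 for standard, 7.86% ± 0.448 for enriched and 7.83% ± 0.439 for withdrawal mice, also given without a test.

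The share of sites with any methylation moved the other way. Withdrawal mice had a value above 0 at 60.1% ± 7.82 of the 11928 sites, against 53.1% ± 2.42 in standard and 53.1% ± 3.34 in enriched mice. The highest was withdrawal mouse 4, with 70.0% of the sites above 0 and the fewest missing rows, and the withdrawal group as a whole missed 9.64% of rows against 16.1% in standard and 16.5% in enriched mice. The part of this difference in coverage in the shares above 0 was not tested. Over all complete autosomal positions the standard mice averaged 0.944% ± 0.0393, the enriched mice 0.930% ± 0.0364 and the withdrawal mice 0.933% ± 0.0218.

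**Figure D5:**
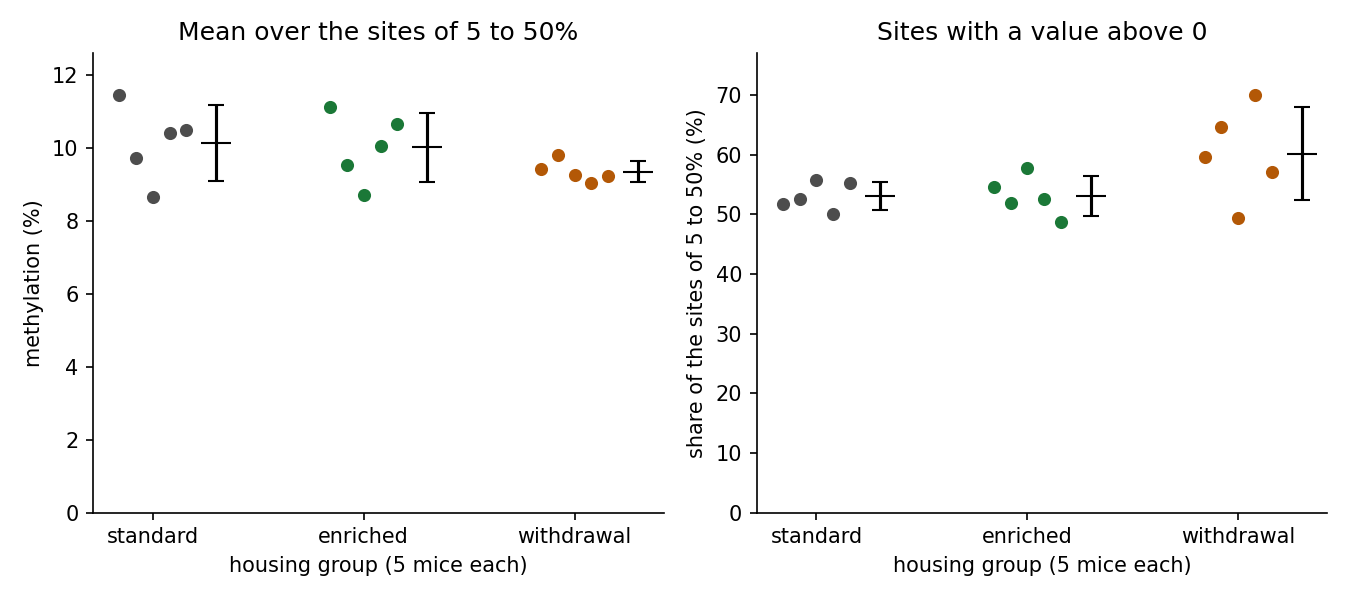
Mean methylation over the 11928 sites (left, percent) and share of them above 0 (right, percent) in each of the 15 mice, with the group mean ± SD in black. The means overlap between groups (8.65% to 11.5%), and the withdrawal mice reach from 49.3% to 70.0% in the share above 0.

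Single sites were tested with limma, a linear model with a moderated variance, on log2((percent + 5)/(100 - percent + 5)), over the 284738 non-CpG sites with a range of at least 5 points. At a Benjamini-Hochberg adjusted p under 0.05, 0 of the 11928 sites were called in any of the 3 comparisons. Over all tested sites the share called was 0.00421% when enriched or withdrawal mice were set against standard mice, and 0% between withdrawal and enriched mice. The smallest limma adjusted p among the 11928 was 0.386 (enriched against standard), 0.601 (withdrawal against standard) and 0.606 (withdrawal against enriched). At an unadjusted p under 0.05, limma found 1254 sites (10.5%) for enriched against standard, where the share over all tested sites was 2.16%. For withdrawal against standard it found 951 (7.97%, all sites 1.91%), and for withdrawal against enriched 920 (7.71%, all sites 1.86%). The directions were mixed, with 610 of the 1254 higher and 644 lower in enriched mice (all sites 1.04% and 1.12%). On the untransformed percent scale the 3 counts were 589 (4.94%, all sites 1.07%), 408 (3.42%, all sites 0.984%) and 397 (3.33%, all sites 0.914%). The sites were chosen by level, and the spread between mice rose with level in these data, from a median SD of 1.45 points at means under 1% to 10.2 points at 5 to 10%. The part of this in the larger shares was not tested. The comparisons share groups. Each p-value sets a group difference against a spread between mice that limma drew toward that of tested sites of like level. It thus does not measure the spread at that site alone.

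The sites with the smallest p in each comparison were 10 different positions, with limma adjusted p between 0.386 and 0.632, so none passed. Under an alternative setting or without 1 mouse, 5 of the 10 did pass in 1 comparison each. At 5 of the 10 positions 2 groups were at 0 in every mouse and the third carried all the methylation. These 5 reached a mean of 5% and the 5-point range only through the group in which they were high. Of the other 5, all but the site in Rbms1 also reached a mean of 5% only through 1 high group. The p-values of all these positions are thus not independent of how the sites were chosen. On the minus strand of chromosome 7 at 119857765, inside both Rexo5 (a gene for an RNA exonuclease) and Dcun1d3, standard mice had 60.9%, 42.9%, 30.8%, 37.0% and 9.86%. There all enriched mice were at 0 and 1 withdrawal mouse was at 11.9%. Enriched and standard mice did not overlap at 0.344% of the 11928 sites (all tested sites 0.0309%). On the plus strand of chromosome 2 at 132601450, between genes, 4 enriched mice had 52%, 13.5%, 37.5% and 27.6%, and the other 11 mice were at 0. In Phactr3, a regulator of a phosphatase, at 178133212 on the minus strand of chromosome 2, enriched mice had 54.5%, 26.3%, 24%, 16.7% and 33.3%, against at most 8.11% in any other mouse. In the kinase gene Mapkapk3, at 107288874 on the plus strand of chromosome 9, 4 withdrawal mice had 15.8%, 50%, 20.5% and 27.1%, and the other 11 mice were at 0.

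The highest of the 10 positions lay in Rbms1, a gene for an RNA-binding protein, at 60796575 on the plus strand of chromosome 2. Standard mice had 0, 3.45%, 0, 14.6% and 41.8%, enriched mice 48.4%, 20%, 75%, 80.8% and 50%, and withdrawal mice 71.0%, 72.9%, 58.3%, 60.6% and 43.1%. The lowest withdrawal mouse was above the highest standard mouse, which held in this direction or the opposite one at 0.453% of the 11928 sites (all tested sites 0.0537%), and 1 enriched mouse lay below standard mouse 5. The others were 2 intergenic sites with methylation mainly in standard mice, on chromosome 9 at 68027500 (30.9% ± 32.1 in standard) and chromosome 6 at 52689733 (30.3% ± 22.7), and sites in Nars2 (23.1% ± 21.8 in standard), Gna11 (27.995% ± 37.6 in enriched) and at Rasgef1a (36% ± 49.8 in enriched). In the last 3 the SD was close to or above the mean, and the other groups were at 0.

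Stretches were tested by the same limma model on the mean of all their complete positions. Of 6549 tested stretches, 3304 held a site of 5 to 50%. Of these 3304, 1 was called for enriched against standard (0.0153% over all tested stretches), and 0 for each of the other comparisons (0% of all). At an unadjusted p under 0.05 there were 207 (6.27%, all stretches 5.22%), 146 (4.42%, all 3.91%) and 148 (4.48%, all 4%) of the 3304, closer to the share over all stretches than was the case for single sites. Of the 10 stretches described above, 8 were tested and had a limma adjusted p of 0.833 or more in every comparison. The moderated SE of their log2 ratio differences lay between 0.257 and 0.275. It varied far less than the SD between mice of the mean over their sites of 5 to 50%, which ran from 3.14 to 11.7 points. The other 2, the constant one on chromosome 1 and that of Skap1, had a range of the stretch mean under 5 points and were not tested.

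The called stretch lay at the end of Rasgef1a, a gene for a Ras exchange factor, on the minus strand of chromosome 6 from 118010737 to 118010789. Its mean over 7 positions was 0 in all standard mice, 0, 34.3%, 3.45%, 0 and 14.3% in enriched mice, and 0 in all withdrawal mice but 1 at 1.803%. The log2 ratio was 1.30 ± 0.27 (SE) higher in enriched than in standard mice, with a limma adjusted p of 0.0125. The stretch reached the 5-point range needed for the test, and its sites reached a mean of 5%, only through the enriched mice, so the call is not independent of how it was chosen. The methylation came from few values: enriched mouse 2 had 80% at 3 positions, enriched mouse 5 had 100% at 1 position and enriched mouse 3 had 24.1% at another. The higher enriched mean thus rested on 3 of 5 mice. Without enriched mouse 2 the adjusted p was 0.759, and without enriched mouse 5 it was 0.184. It was also lost with an offset of 1 point in the log ratio (adjusted p 0.288) and on the percent scale (0.787).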

How the data were processed

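Dentate gyrus DNA of 15 mice was profiled by RRBS, with 5 mice in each of 3 housing groups taken from the sample labels. The deposited table gives each cytosine's methylation as a percent, by strand and mouse, without coverage. Per the submitters' processing notes, Trim Galore 0.4.0, cutadapt 1.8.1, Bismark 0.16.1, methylKit 1.5.2 and the build mm10 were used, with settings and coverage minimum not given in the sources used here. Bisulfite reads unconverted and hydroxymethylated cytosines as methylated, and the conversion rate is not given in the sources used here.

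The table runs through the chromosomes from CpG (455836 rows) to non-CpG (2462278 rows). In promoter sequence 40750 of 40750 rows of the first run were CG and 0 of 118733 of the second. Of the non-CpG rows, 40 repeated entries were left out. RefSeq tables of GRCm38.p6, the same assembly as mm10, gave 21896 protein-coding genes and the promoter sequences. Python 3.11.15, pandas 2.3.3, R 4.3.3 and limma 3.58.1 were used. limma fitted 3 group means with a variance trend, two-sided, with Benjamini-Hochberg adjustment over all tested features. It was also run on simulated data with independent sites, which leaves out the fragments that neighbouring sites share. Stretches needed at least 3 complete positions. Spreads are between mice, with 1 library each.

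The sites, gene lists and comparisons were chosen with earlier results of these data known. By rule, the text names the 10 stretches and 20 protein-coding genes with the most sites, the 5 sites of smallest p per comparison, the sites of highest and lowest SD, and up to 3 genes of each list; 1 of the 20 genes is not reported here. Promoter sites shown are the 8 of highest mean and those followed by cytosine, outside chromosome 18. The Tet1, Igf2 and Reln sites and the mouse values of Wwox and Esrrg were picked after their values were seen.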

Additional observations from a re-analysis of the deposited data

Results flagged for a closer look

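Each group of 5 mice was examined for a mouse whose gap to the nearest other mouse exceeded the 95% critical value of Dixon's ratio. Of 96 groups of values (32 items in 3 groups), 5 had such a mouse, where chance gives about 1 in 20. The Malat1 stretch was flagged in both standard mice, through standard mouse 5 at 28.6%, and withdrawal mice, through withdrawal mouse 3 at 34.1%. The mean over the sites of Msi2 was low in standard mouse 3, at 6.78%. The mean over the sites of Npas3 was low in enriched mouse 3, at 5.12%. The mean over the sites of Abcc4 was low in enriched mouse 1, at 7.80%.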

How the results depend on the processing

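The depth behind each percentage is unknown, so no coverage minimum could be tried, and a value of 80% or 100% in 1 mouse cannot be weighed by its reads. The number of sites was 3601 with a lower limit of 10%, 4909 by the median over 15 mice and 64092 when 3 values per group were enough. Leaving out 1 mouse gave 12059 to 12485 sites, which kept 91.6% to 96.1% of the 11928. The share at gene ends was 7.83% with 2 kb ends, 4.97% with each stretch counted once and 2.999% for sites of 10 to 50%. The share with a neighbour was 28.7% within 10 bases, 50.7% within 200 bases and 36.2% for sites of 10 to 50%. Added after the data were seen, leaving out the sites above 0 in at most 4 mice gave 0.413% followed by a cytosine, without the stretch of 14 sites the share was 1.46%, and the promoter share of CA without Malat1 was 79.8%.

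The difference of the site means was also taken with 3 values per group as enough (-1.24 for withdrawal against standard). With the median over sites, withdrawal was 1.70 points above standard and 1.69 above enriched, the opposite direction to the mean. Leaving out 1 mouse gave -0.508 (without standard mouse 3) to 0.197 (without standard mouse 1) for enriched against standard, -1.17 to -0.466 for withdrawal against standard and -0.986 to -0.387 for withdrawal against enriched.

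By limma, 1 of the 11928 sites was called for enriched against standard with an offset of 1 point (34 of all 284738 tested sites). Without 1 mouse 0 to 2 were called (15 to 35 of all tested sites). For withdrawal against standard 0 to 1 were called without 1 mouse (15 to 26 of all tested sites). For withdrawal against enriched 1 was called without a variance trend (2 of all) and 0 to 1 without 1 mouse (2 to 15 of all). Without the log transform no comparison had a called site, and the sites under an unadjusted p of 0.05 numbered 589, 408 and 397 in place of 1254, 951 and 920. The stretches called for enriched against standard were 0 with an offset of 1 point, on the percent scale and with gaps of at most 10 bases, and 1 to 6 without 1 mouse, most without standard mouse 1. For withdrawal against standard 0 to 2 were called without 1 mouse (0 to 3 of all tested stretches), most without withdrawal mouse 4. For withdrawal against enriched 0 to 1 were called without 1 mouse (0 to 2 of all). The called Rasgef1a stretch had an adjusted p of 0.288 with an offset of 1 point and 0.787 on the percent scale. The site at 119857765 had an adjusted p of 0.0357 with an offset of 1 point and 0.0233 without standard mouse 5. For enriched against standard, the site at 132601450 had 0.0440 without enriched mouse 1 and the site at 68027500 had 0.0373 without standard mouse 3. For withdrawal against enriched, the site at 178133212 had 0.0483 without a variance trend, and the site at 118010738 had 0.0343, 0.0454 and 0.0326 without enriched mice 1, 3 and 4.

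The replicate numbers name different mice, and same-numbered mice did not deviate together (correlations of -0.0279 to 0.0202 over the non-CpG sites). With the replicate block, limma called 0 sites in each comparison, and 3, 0 and 1 stretches for enriched against standard, withdrawal against standard and withdrawal against enriched. The block left the differences of the site means as they were.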
